A study of Mus musculus with 18 samples.

Results

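The multiciliated cell programme was followed here through 10 genes, Foxj1, Ccno, Myb, Rfx2, Rfx3, Dnah5, Dnah9, Tekt1, Cdhr3 and Ccdc39, chosen by symbol from 23420 genes listed in each of 3 tables of RNA-seq read counts from whole mouse lungs at 14.5 days post coitum (dpc). All 10 were found, Dnah5 and Dnah9 under their older symbols Dnahc5 and Dnahc9. The tables cover 3 mouse lines, each with 3 control and 3 deficient lungs, 18 samples in all. Control lungs were Rptor f/+; ShhCre/+, Tfam f/+; ShhCre/+ or Cox10 f/+; ShhCre/+, and deficient lungs were the f/f; ShhCre/+ animals of the same line. By these labels every lung, controls included, carried Cre and at least 1 floxed allele. Cre was driven from the Shh locus, which is active in the lung epithelium, while the RNA came from the whole organ with its mesenchyme, vessels and blood. Rptor encodes the mTORC1 subunit Raptor, Tfam a factor needed to transcribe and maintain mitochondrial DNA, and Cox10 an enzyme of heme A synthesis that complex IV depends on.

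Multiciliated cells line the airways and beat in concert to move mucus. As background, the nuclear proteins Gmnc (GEMC1) and Mcidas start the programme, working with the cell cycle factors E2f4 and E2f5. Myb and Ccno act in the amplification of centrioles that become basal bodies, and Foxj1 with the RFX factors Rfx2 and Rfx3 switches on the genes of the motile axoneme. Dnah5 and Dnah9 are heavy chains of the outer dynein arms, Tekt1 is a tektin of the doublet microtubules, Ccdc39 is part of the molecular ruler that spaces dynein arms along the doublet, and Cdhr3 is a cadherin-related protein of the ciliated cell surface.

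Ccno and Myb were lower in Rptor-deficient lungs, 2 of 8 tested members, where 18.2% of all genes were called lower. Ccno was lower in Tfam-deficient lungs, 1 of 8 against 2.63%, a Tfam call that was lost in 4 of 6 fits without a single sample. Relative to the epithelial genes Epcam, Cdh1 and Nkx2-1, the Rptor groups overlapped for both Ccno and Myb. The 3 tested members of the axoneme, Tekt1, Ccdc39 and Dnah9, did not pass the threshold in any line, and whether they differed from the regulators was not tested. Foxj1 was lower in every deficient lung than in every control lung of its own line, by nearly the same amount in the 3 lines. It did not pass the threshold in the fit of genotype alone in any line. In the Rptor line it passed with replicate number as a block (limma adjusted p = 0.0434) and with all 18 samples in 1 fit (0.0144). These were 2 of 5 alternatives that kept every sample, and 1 of 6 fits without a single sample passed there. Dnah5 and Cdhr3 stayed below 10 normalised reads in all 18 samples and were not tested.

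RFX factors recognise a sequence called the X-box, and its half-site GTTGCC, which reads as GGCAAC on the other strand, was searched for on both strands of the RefSeq promoter windows of build GRCm38.p6, which run from 250 bases before to 50 bases after a gene's start. Of 9 members with a window, 5 held the half-site, against 12.5% of all 32851 windows and 14.1% of all 27025 genes with a window. The matches lying before the start are given in capitals within their flanking bases, read 5′ to 3′ on the strand of the gene, because these members are themselves RFX genes, regulators or products of the programme. They lie at chr13:112987556-112987615 for Ccno on the plus strand, chr17:56831092-56831151 for Rfx2, chr11:72361885-72361944 for Tekt1 and chr12:33092876-33092908 for Cdhr3, the last 3 on the minus strand.
Ccno: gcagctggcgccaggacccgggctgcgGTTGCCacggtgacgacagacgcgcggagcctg
Rfx2: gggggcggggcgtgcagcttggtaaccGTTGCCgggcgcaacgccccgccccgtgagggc
Tekt1: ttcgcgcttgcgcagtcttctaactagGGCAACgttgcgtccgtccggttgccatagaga
Cdhr3: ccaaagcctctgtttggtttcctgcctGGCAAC
The match begins 219 bases before the start in Ccno, 116 in Rfx2, 35 in Tekt1 and 6 in Cdhr3. Tekt1 holds a second copy, as spelled, 15 bases before the same start, and none in its other window. That RefSeq start lies inside the GENCODE span of Tekt1, chr11:72344722-72362442, so both copies fall within that span. The Rfx3 match lies after the start. Mcidas, the regulator whose gene lies next to Ccno on chromosome 13, holds one 195 bases before its start, at chr13:112993646-112993705 on the plus strand.
Mcidas: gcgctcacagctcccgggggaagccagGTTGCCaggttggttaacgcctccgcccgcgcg
The forkhead core GTAAACA, which reads as TGTTTAC on the other strand and is a motif of the family Foxj1 belongs to, was in 3.65% of all windows and in 1 of the 9 members, Myb, after its start. Among other motile cilium genes with a window, 43 of 91 held the RFX half-site and 6 of 91 the forkhead core, and among genes of the primary cilium 12 of 25 and 0 of 25 did. A match describes the letters in these windows and is not evidence of binding.

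The samples were deep and alike in depth, with 27727202 to 29611064 normalised reads and 17671 to 17910 genes above 0. The targeted genes did not separate the groups in whole lungs. Rptor was 2298, 2224 and 2197 normalised reads in its control lungs and 2442, 1986 and 2020 in the deficient lungs, Tfam was 1057, 1063 and 1185 against 940, 994 and 1107, and Cox10 was 753, 812 and 824 against 809, 829 and 743. These groups overlap and the limma adjusted p was 0.570, 0.472 and 0.979, so in whole-lung RNA the targeted gene does not check the labels. The epithelial genes Epcam, Cdh1 and Nkx2-1 were present throughout. Their summed level was 15326 to 16072 in Rptor control against 6216 to 8480 in Rptor-deficient lungs, 14227 to 14677 against 11162 to 12703 in the Tfam line, and 11664 to 11894 against 7965 to 10463 in the Cox10 line. Singly, 3 of 3 were called lower in the Rptor line, 1 of 3, Cdh1, in the Tfam line and 0 of 3 in the Cox10 line, where all 3 had an unadjusted p below 0.05 (limma). Of all genes, 18.2% and 2.63% were called lower in the Rptor and Tfam lines, and 13% had such an unadjusted p in the Cox10 line. Markers of other cells were higher in the Rptor-deficient lungs. The 6 macrophage markers summed to 3819 to 4166 reads in Rptor control and 6128 to 7224 in deficient lungs, the 4 endothelial markers to 24254 to 25530 and 30867 to 34230, and the 5 mesothelial markers to 4328 to 5583 and 7166 to 7737. All 6, all 4 and 3 of 5 of them, Wt1, Upk3b and Upk1b, were called higher and none lower, where 16.6% of all genes were called higher. The other 2 mesothelial markers, Msln and Krt19, lay wholly below their controls with log2 fold changes of -0.93 and -0.10. None of these lists had a called gene in the Tfam or Cox10 lines. At an unadjusted p below 0.05 (limma) the Cox10 line gave 2 of the 15, against 13% of all genes. The Tfam line gave 6 of the 15, for which the share of all genes is not given here. The part of these markers in the values below was not tested. In RNA from a whole organ, fewer cells of a type and less RNA per cell cannot be told apart. Single libraries stood apart. Tfam-deficient replicate 1 had 12849 summed reads of 4 heart muscle markers against at most 6508 in the other Tfam samples. One of these markers, Nppa, was higher in the Tfam-deficient lungs as a group (log2 fold change 2.29, limma adjusted p = 0.000273). Tfam-deficient replicate 3 had 349.0 summed reads of the oesophagus markers Krt5, Krt13 and Krt4 against at most 33.7 in the other Tfam samples, and Cox10-deficient replicate 3 had 26823 reads of 4 endothelial markers against at most 18647 in the other Cox10 samples and 342.0 of 5 secretory markers against at most 136.9, and it was also the highest in 8 blood progenitor markers. Cox10-deficient replicate 1 had 883.2 reads of 5 neural markers against at most 624.3.

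Within a table, a gene was tested when it had at least 10 normalised reads in at least 3 of 6 samples, and was called when limma gave an adjusted p below 0.05 over all genes tested. Of 8 tested members, 2 were called in the Rptor line, both lower, against 34.8% of the 14940 genes tested there and 18.2% called lower. The Tfam line gave 1 of 8, lower, against 4.66% of 15053 genes and 2.63% called lower, and the Cox10 line 0 of 8, against 0.475% of 14937 genes. At an unadjusted p below 0.05 the Cox10 line gave 3 of 8, against 13% of all genes. The deficient lungs lay wholly below the control lungs for 4 of the 8 tested members in the Rptor line, 3 of 8 in the Tfam line and 2 of 8 in the Cox10 line, and also for the untested Cdhr3 in the Tfam line. The share of all tested genes with such a gap was 26%, 11.8% and 10.8% in that order. A single member, Ccdc39, lay wholly above its controls, in the Cox10 table, as did 10.6% of all genes there. The members' median log2 fold change was -0.24, -0.19 and -0.08, against 0.01, 0.00 and 0.00 over all genes tested.

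**Figure D1:**
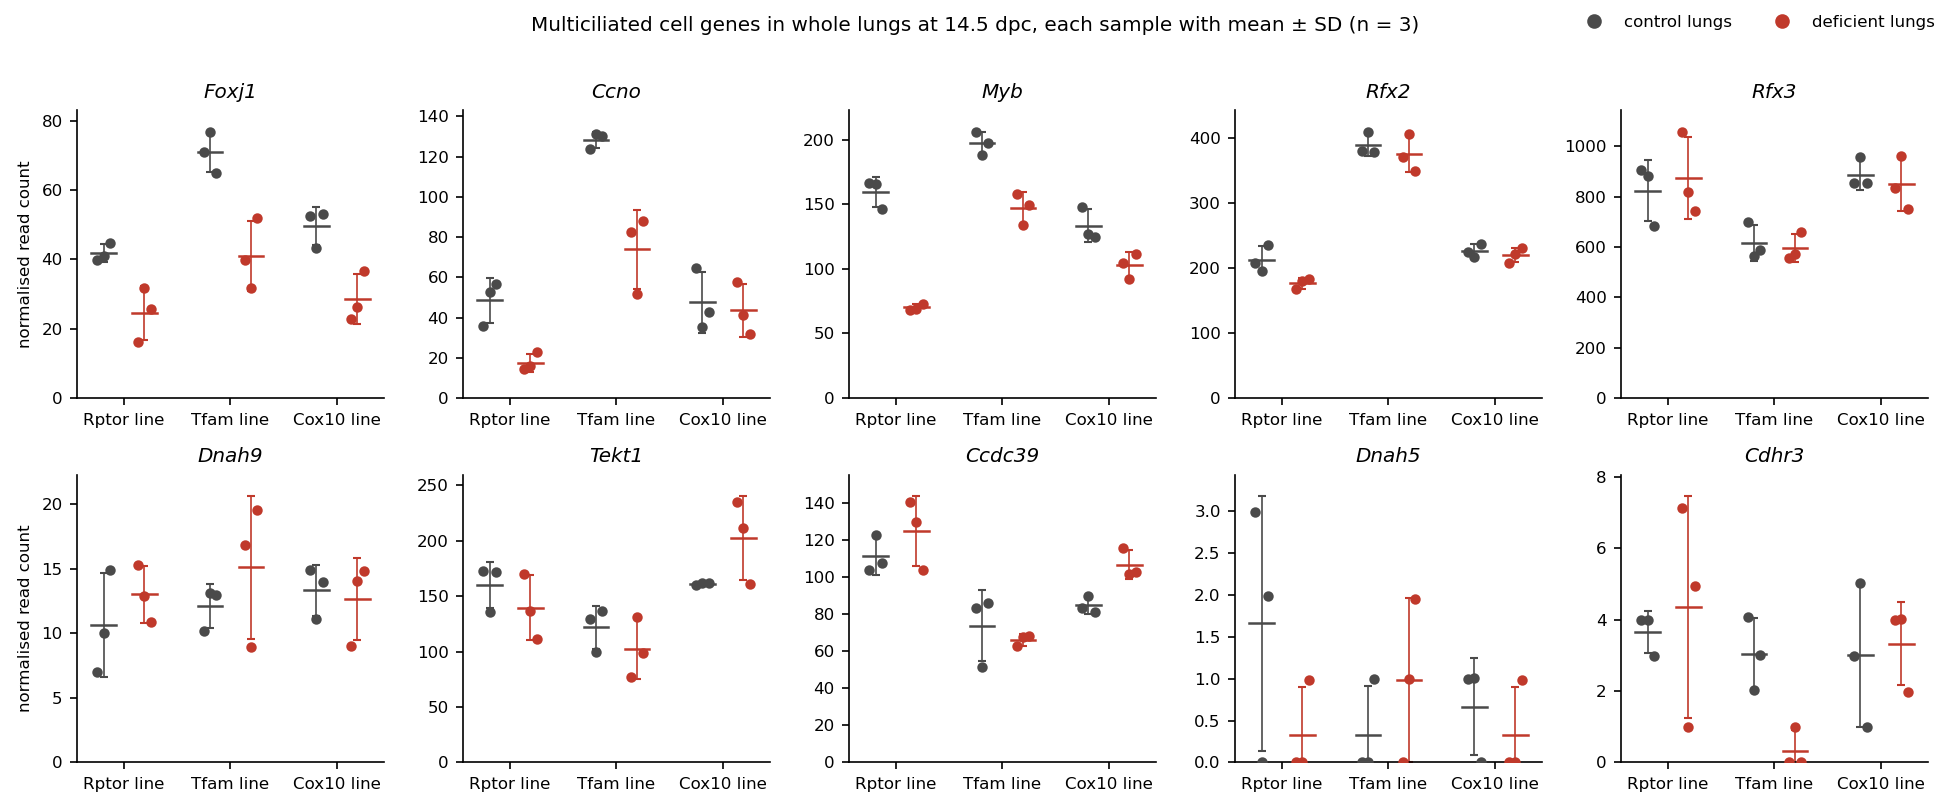
Normalised read count (vertical axes, from 0) of the 10 genes in each lung, grouped by line along the horizontal axis, control lungs in grey and deficient lungs in red, with bars for the mean and SD of 3 samples. Foxj1 and Myb separate the groups in all 3 lines, while Rfx3, Dnah9 and Tekt1 overlap in all 3.

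Foxj1, the forkhead factor that defines motile ciliogenesis (chr11:116330704-116335399, minus strand, GRCm38), had 39.9, 41.0 and 44.8 normalised reads in Rptor control lungs and 16.3, 31.7 and 25.7 in Rptor-deficient lungs. Tfam samples had 71.1, 76.8 and 65.0 in control and 39.7, 31.8 and 51.8 in deficient lungs. The Cox10 line gave 52.6, 43.4 and 53.0 in control against 23.0, 26.1 and 36.6 in deficient lungs. All 9 deficient lungs lay below the controls of their line. The log2 fold change was -0.79 ± 0.27 (SE) for Rptor, -0.80 ± 0.20 for Tfam and -0.80 ± 0.24 for Cox10, with limma adjusted p of 0.0514, 0.0516 and 0.260. The effect differed between Rptor and Tfam lines by 0.01 on the log2 scale, with a 95% interval from -0.71 to 0.72, and the other pairs of lines had intervals of the same width, so differences of that size were not resolved. In the Rptor line, where samples of the same replicate number varied together, a fit with the number as a block gave an adjusted p of 0.0434, 1 fit of all 18 samples gave 0.0144, and the alternatives ranged from 0.0144 to 0.136. Without Rptor-deficient replicate 2 the Rptor value was 0.0354, the only 1 of 6 such fits to pass. Without Tfam-deficient replicate 3 the adjusted p in the Tfam line was 0.0385, within a range of 0.0385 to 0.162 over the alternatives. That was again the only 1 of 6 such fits to pass, and 0 of 6 alternatives that kept every Tfam sample passed.

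Ccno, a cyclin-like protein required for centriole amplification (chr13:112987802-112990777, plus strand), had 35.9, 53.0 and 56.7 normalised reads in Rptor control lungs and 14.3, 15.8 and 22.7 in Rptor-deficient lungs. It was 123.9, 131.4 and 130.0 in Tfam control lungs and 82.4, 51.6 and 88.0 in Tfam-deficient lungs. In the Cox10 line it was 64.5, 35.3 and 43.0 in control and 57.9, 41.2 and 31.6 in deficient lungs. The groups were apart in the Rptor and Tfam lines and mixed in the Cox10 line. Ccno fell by 1.41 on the log2 scale in Rptor-deficient lungs (SE 0.28, limma adjusted p = 0.00569) and by 0.82 in Tfam-deficient lungs (SE 0.19, limma adjusted p = 0.0351). For Cox10 the log2 fold change was -0.12 (95% interval -0.82 to 0.58, limma adjusted p = 0.876). The Rptor call held without any single sample. The Tfam call was lost without any 1 of the 3 control samples or without deficient replicate 2, where the adjusted p rose to between 0.0595 and 0.109, and also with no filter (0.0610) and with all 18 samples in 1 fit (0.141). The Rptor effect differed from the Cox10 effect by -1.29 (SE 0.39, limma adjusted p = 0.0521), short of the threshold, with a range of 0.0182 to 0.114 over the replicate block and the fits that left out 1 sample. It passed with the block, and without Rptor control replicate 1, Rptor-deficient replicate 3, Cox10 control replicate 1, Cox10-deficient replicate 3 or Tfam-deficient replicate 2.

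Myb, a transcription factor of multiciliated cells and also of blood progenitors (chr10:21124935-21160984, minus strand), had 166.5, 165.8 and 146.2 normalised reads in Rptor control lungs against 68.3, 69.3 and 73.1 in Rptor-deficient lungs. It was 206.2, 188.0 and 197.1 against 157.8, 134.0 and 149.6 in the Tfam line. The Cox10 line gave 147.9, 127.1 and 124.9 against 104.8, 92.5 and 111.7. Each deficient group lay below its controls, with the widest gap in the Rptor line. Myb fell by 1.17 in Rptor-deficient lungs (SE 0.14, limma adjusted p = 0.000555), and its log2 fold change was -0.42 ± 0.11 for Tfam and -0.37 ± 0.14 for Cox10 (limma adjusted p = 0.0623 and 0.353). It was the only one of 8 tested members whose effect differed between lines at the threshold. The Rptor effect exceeded the Tfam effect by -0.75 (95% interval -1.10 to -0.40, limma adjusted p = 0.00862, with 11.2% of 14550 genes called) and the Cox10 effect by -0.80 (95% interval -1.15 to -0.45, adjusted p = 0.00614, with 7.48% called). Between the Tfam and Cox10 lines the difference was -0.05 (95% interval -0.40 to 0.29), and 0.055% of genes were called. The 8 blood progenitor markers measured, Kit, Cd34, Gata1, Gata2, Ptprc, Spi1, Runx1 and Gfi1b, summed to 9081 to 10172 reads in Rptor control and 9630 to 11381 in Rptor-deficient lungs, ranges that overlap. Cd34 and Kit, with means of 6305 and 2401 reads, made up most of the Rptor control sums. Gata1, Ptprc, Spi1 and Gfi1b had means of 28.2, 80.8, 109 and 8.31 reads there, so the sums mainly follow Cd34 and Kit. Summed over the 8 markers, Tfam samples had 8991 to 10387 in control and 10057 to 10803 in deficient lungs. Cox10 controls summed to 5735 to 6193, and the deficient lungs lay above them at 6465, 6493 and 10097. Of the 7 tested singly in the Rptor line, Kit, Ptprc and Spi1 rose by 0.64, 0.77 and 0.65 on the log2 scale (limma adjusted p = 0.000234, 0.00533 and 0.00587) and none was called lower. Of all genes there, 16.6% were called higher and 18.2% lower. The part of these markers in the Myb values was not tested. An antisense gene, Gm26577, overlaps Myb.

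Rfx2 (chr17:56775897-56831013, minus strand) had 208.4, 195.8 and 235.7 normalised reads in Rptor control lungs and 167.2, 180.2 and 182.8 in Rptor-deficient lungs. The groups did not overlap, but the log2 fold change of -0.27 ± 0.12 had a limma adjusted p of 0.116, which was 0.0315 with all 18 samples in 1 fit. In the other lines the groups overlapped, with means of 390.1 and 375.7 reads in Tfam control and deficient lungs and 226.3 and 220.4 in the Cox10 line, and 95% intervals of the log2 fold change from -0.25 to 0.14 and from -0.27 to 0.19. Rfx3 (chr19:27761721-28011166, minus strand), which also serves cells with a primary cilium, ranged from 684.3 to 1059 reads in the Rptor line, 554.8 to 698.0 in the Tfam line and 751.3 to 963.4 in the Cox10 line. Its groups overlapped in every line and its log2 fold change lay between -0.07 and 0.08.

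**Figure D2:**
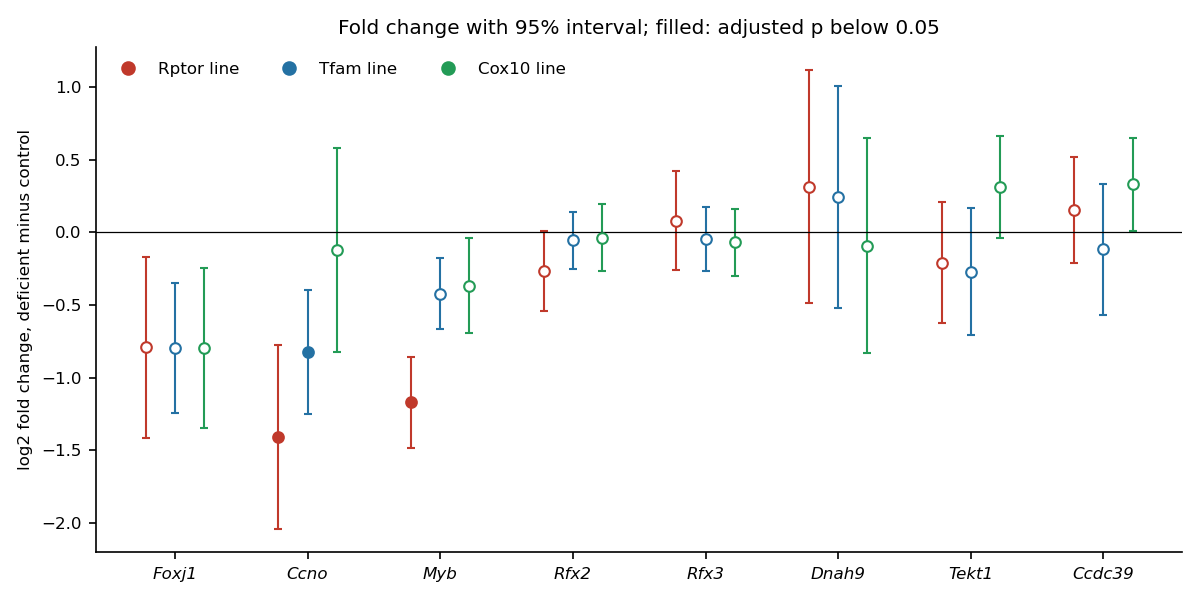
Log2 fold change of the 8 tested members, deficient minus control (vertical axis), with 95% intervals, coloured by line, filled where the adjusted p was below 0.05. Only Ccno in the Rptor and Tfam lines and Myb in the Rptor line are filled, and the 3 Foxj1 points sit at the same height.

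Among the axonemal genes, Tekt1 (chr11:72344722-72362442, minus strand) had 172.5, 135.9 and 172.1 normalised reads in Rptor control lungs and 170.3, 136.7 and 111.7 in Rptor-deficient lungs. Tfam samples gave 129.0, 100.05 and 137.0 against 77.4, 131.0 and 98.7, and in the Cox10 line 159.8, 162.4 and 161.9 against 235.5, 211.2 and 161.1. The groups overlapped in every line, and the log2 fold changes of -0.21, -0.27 and 0.31 had limma adjusted p of 0.402, 0.528 and 0.434. Ccdc39 (chr3:33812362-33844310, minus strand) was 103.7, 122.9 and 107.4 reads in Rptor control and 140.7, 129.7 and 103.8 in Rptor-deficient lungs. It was 83.3, 51.5 and 86.0 against 62.5, 67.5 and 68.4 in the Tfam line. In the Cox10 line it was 83.4, 89.8 and 80.9 against 115.8, 101.6 and 102.8, the only member with all deficient lungs above all controls in any line. That log2 fold change of 0.33 ± 0.14 had a limma adjusted p of 0.371. The protein-coding gene Ttc14 and the antisense gene Gm43140 overlap Ccdc39 on the opposite strand, and whether reads were counted by strand is not given in the sources used here. Dnah9 (chr11:65831282-66168551, minus strand) was near the limit of detection for its length, with 6.98 to 15.3 reads in the Rptor line, 8.93 to 19.6 in the Tfam line and 8.98 to 14.9 in the Cox10 line. None of its log2 fold changes, 0.31, 0.24 and -0.09, passed the threshold, and their 95% intervals were wide, from -0.49 to 1.12 in the Rptor line.

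Dnah5 (chr15:28203752-28472052, plus strand) had 0 to 2.99 normalised reads in any sample, which is at or under a floor of 3 reads per library. Cdhr3 (chr12:33033796-33092875, minus strand) had 0.990 to 7.14 reads in the Rptor line and 0.999 to 5.04 in the Cox10 line. In the Tfam line it had 4.06, 2.02 and 3.00 reads in control lungs and 0, 0.993 and 0 in deficient lungs. Those groups do not overlap, but a difference of so few reads was not detectable as a fold at this depth.

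Per kilobase of exon in the Rptor control lungs, the order of mean levels was Tekt1 at 98.7 normalised reads per kilobase, Rfx3 at 88.5, Rfx2 at 63.5, Myb at 42.3, Ccdc39 at 30.9, Ccno at 25.9, Foxj1 at 15.96, Cdhr3 at 1.24, Dnah9 at 0.731 and Dnah5 at 0.106. Transcripts of both outer arm heavy chains were thus far below those of Tekt1 and Ccdc39 at this stage. Tables were scaled separately, so levels were set side by side across lines as a description. In Tfam-line controls the means were 128.5 ± 4.0 (SD, n = 3) for Ccno and 390.1 ± 17.5 for Rfx2, against 48.5 ± 11.1 and 213.3 ± 20.4 in Rptor-line controls and 47.6 ± 15.1 and 226.3 ± 10.6 in Cox10-line controls.

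Since the summed level of the epithelial genes was lower in the deficient lungs of each line, Foxj1 was also set against them as its log2 level minus the mean log2 level of Epcam, Cdh1 and Nkx2-1. In the Rptor line this difference was -7.02, -6.92 and -6.83 in control and -6.83, -6.19 and -6.63 in deficient lungs, with every deficient lung above the highest control, replicate 1 by less than the digits given. The Tfam samples gave -6.01, -5.87 and -6.19 against -6.48, -6.86 and -6.30, and in the Cox10 line -6.20, -6.46 and -6.16 against -6.77, -6.74 and -6.51. Deficient lungs were thus all higher in the Rptor line, by 0.38, and all lower in the Tfam and Cox10 lines, by -0.53 and -0.40, each with p = 0.1 in a two-sided exact permutation test, the smallest p that 3 against 3 samples can give. With Epcam as the only reference, the Rptor difference took the opposite sign, at -0.020 (exact permutation p = 0.9). Permuting the labels within each line, over 400 arrangements, the Rptor effect differed from the Tfam effect by 0.90 and from the Cox10 effect by 0.78 (exact permutation p = 0.005 for both, the smallest it can give, and 0.0075 adjusted over 3 pairs). The labels were permuted without regard to replicate number, and no paired form of this comparison was run. The result also rested on the reference. Cdh1 had a log2 fold change of -1.89 in the Rptor line against -0.77 for Epcam and -0.85 for Nkx2-1, and with Epcam or Nkx2-1 alone the exact permutation p was 0.12 and 0.055 against the Tfam line and 0.175 and 0.12 against the Cox10 line.

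**Figure D3:**
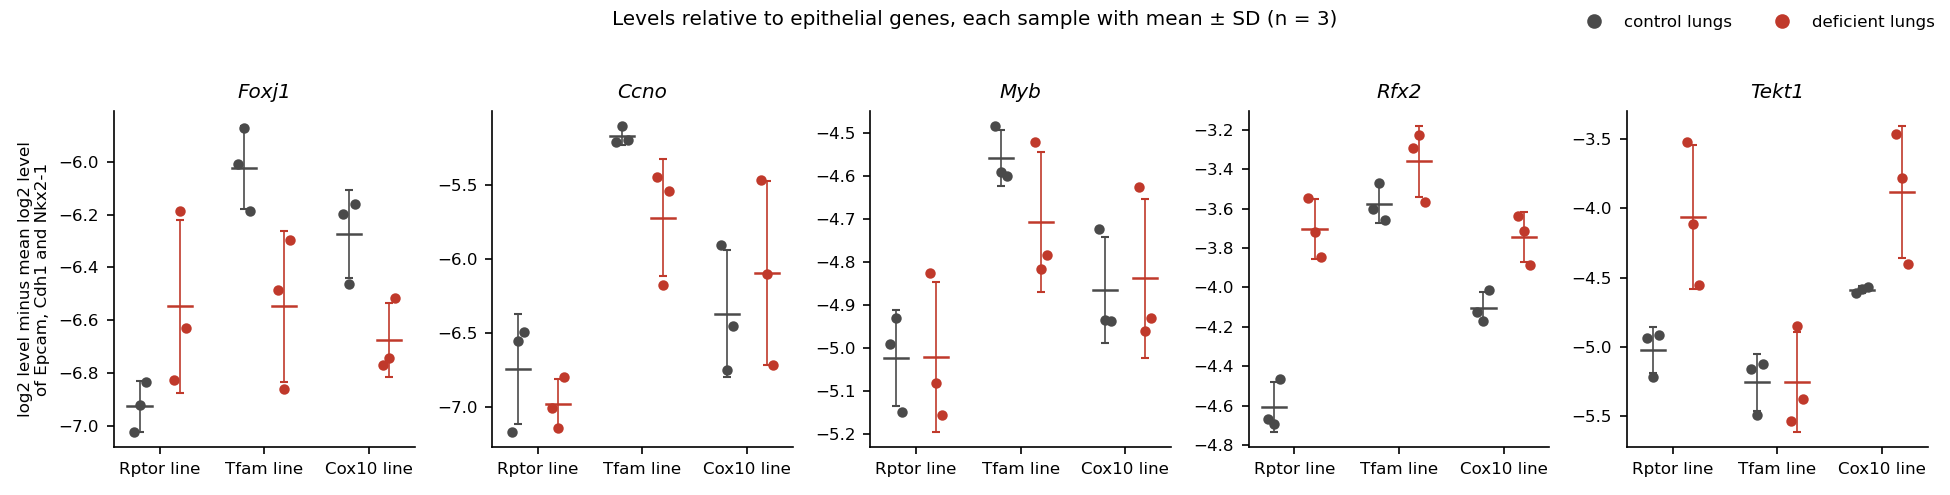
Log2 level of 5 members minus the mean log2 level of Epcam, Cdh1 and Nkx2-1 (vertical axes) in each lung, by line, control in grey and deficient in red, with mean and SD of 3 samples. Foxj1 is higher in Rptor-deficient lungs, a direction that turns to -0.020 against Epcam alone, and lower in Tfam- and Cox10-deficient lungs, Myb overlaps in all 3 lines, and Rfx2 is higher in Rptor- and Cox10-deficient lungs.

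On the same scale Myb differed by 0.00 for Rptor, -0.15 for Tfam and 0.03 for Cox10, and its groups overlapped each time. Ccno differed by -0.24, -0.55 and 0.27, with only the Tfam groups apart. Rfx2 was higher relative to the epithelial genes by 0.90, 0.22 and 0.36 and Tekt1 by 0.96, 0.00 and 0.70, with groups apart in the Rptor and Cox10 lines. These differences were not tested. Against Sox2, the transcription factor of the proximal airway from which multiciliated cells arise, Foxj1 was higher by 2.29 in Rptor-deficient lungs, where Sox2 itself fell by 3.09 (SE 0.27, limma adjusted p = 0.000164), and differed by -0.29 and -0.20 in the Tfam and Cox10 lines with overlapping groups. Sox2 also fell by 0.51 in Tfam-deficient lungs (limma adjusted p = 0.0189), and its log2 fold change for Cox10 was -0.60 (limma adjusted p = 0.436).

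A wider list of motile cilium genes was examined, of which 109 of 118 were found, 69 were tested in each line, 34 stayed below 10 reads in every sample and 3 were at 0 throughout. In the Rptor line 18 of 69 were called, 26.1% against 34.8% of all genes, 13 lower and 5 higher, where 18.2% of all genes were called lower and 16.6% higher. The Tfam line gave 3 of 69, 4.35% against 4.66%, all lower, and the Cox10 line 0 of 69, against 0.475%. At an unadjusted p below 0.05 (limma) the Cox10 line gave 14 of 69, 20.3% against 13% of all genes. The list's median log2 fold change was -0.04, -0.05 and 0.03. Without Rptor control replicate 1 the Rptor count was 9, and leaving out each other Rptor sample gave 12 to 15. The Tfam count was 1 or 2 without any single sample, being 1 without control replicate 1, control replicate 3 or deficient replicate 3.

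**Figure D4:**
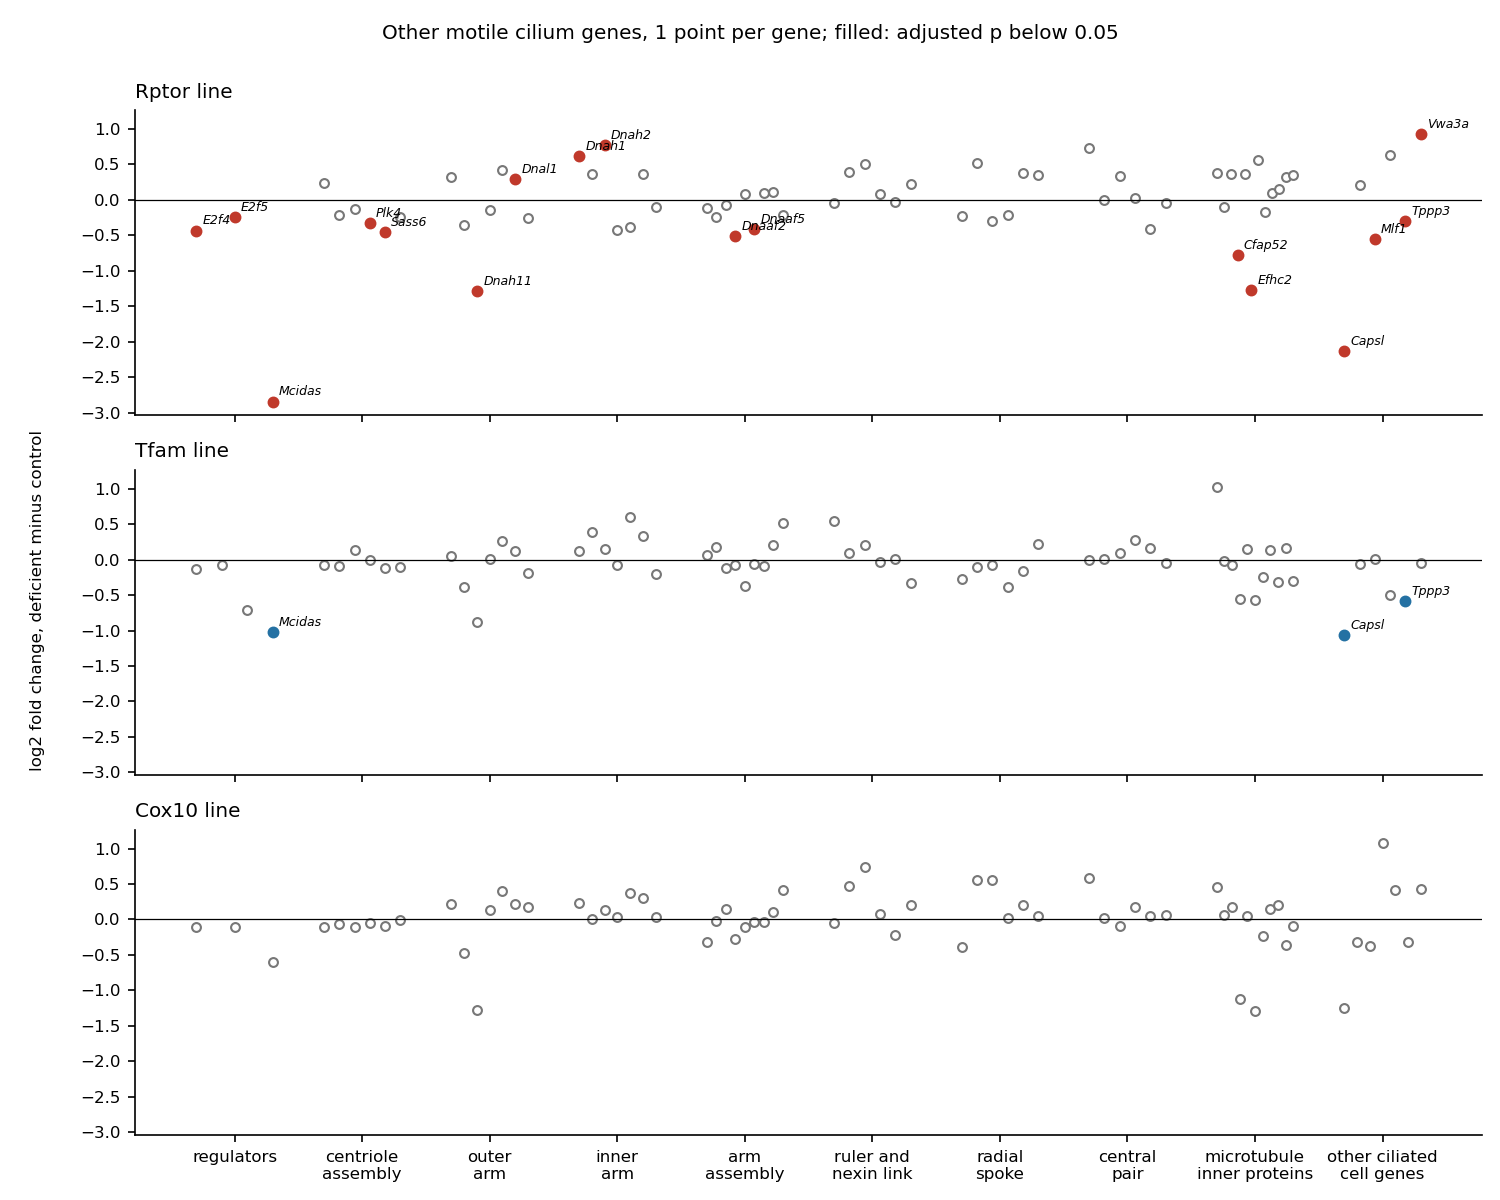
Log2 fold change, deficient minus control (vertical axis), of tested genes of the wider list, 1 point per gene, grouped by role along the horizontal axis, 1 panel per line, filled and named where the adjusted p was below 0.05. The 3 filled Tfam points, Mcidas, Capsl and Tppp3, are also filled and lower in the Rptor line, while no ruler and nexin link, radial spoke or central pair gene is filled in any line.

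Among the called genes of the list, the largest log2 fold change in the Rptor line was that of Mcidas, a regulator at the head of the programme. Mcidas had 17.0, 21.0 and 15.9 normalised reads in Rptor control lungs and 2.04, 1.98 and 0.988 in Rptor-deficient lungs. The Tfam samples had 37.6, 40.4 and 36.0 against 18.9, 21.8 and 14.7, and in the Cox10 line 15.9, 9.08 and 11.0 against 11.0, 6.03 and 5.93. The control mean was 10.8 times the deficient mean in the Rptor line, with an exact 95% counting interval of 4.35 to 34.6 from 54 and 5 reads. On the log2 scale with 1 added, Mcidas fell by 2.84 in the Rptor line (SE 0.38, limma adjusted p = 0.00095) and by 1.02 in the Tfam line (SE 0.23, limma adjusted p = 0.0310), and its log2 fold change in the Cox10 line was -0.60 (limma adjusted p = 0.523). The Rptor effect was larger than the Tfam effect by -1.83 and than the Cox10 effect by -2.24 (limma adjusted p = 0.0114 and 0.00328). Gmnc, too low to be tested in the Rptor line and so outside that ranking, was named here after its values were seen. It was listed at 12.96, 12.99 and 6.96 reads in Rptor control lungs and at 0 in all 3 Rptor-deficient lungs, which is at least 3.66-fold lower at a floor of 3 reads per library. It had 22.4, 19.2 and 18.01 against 13.9, 9.93 and 11.7 reads in the Tfam line and 1.99 to 7.91 reads, mixed, in the Cox10 line.

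Capsl, a calcium-binding protein gene of ciliated cells, had 45.9, 31.0 and 44.8 reads in Rptor control and 8.16, 11.9 and 5.93 in Rptor-deficient lungs, 59.9, 41.4 and 58.0 against 33.7, 24.8 and 17.6 in the Tfam line, and 37.7, 27.2 and 39.0 against 17.0, 12.1 and 12.9 in the Cox10 line. All 9 deficient lungs again lay below their controls. It fell by 2.13 and by 1.06 in the Rptor and Tfam lines (limma adjusted p = 0.00165 and 0.0461), and its log2 fold change of -1.25 in the Cox10 line had an adjusted p of 0.125, which was 0.0298 with all 18 samples in 1 fit. Tppp3, a tubulin polymerisation-promoting protein, was 385.9, 344.7 and 398.9 against 305.9, 294.1 and 315.2 reads in the Rptor line and 489.7, 460.8 and 435.1 against 309.7, 299.8 and 311.8 in the Tfam line. It fell by 0.30 and by 0.59 (limma adjusted p = 0.0420 and 0.00230), and the Rptor call was lost with samples scaled to their totals (0.0502) and with no filter (0.0525). As a log2 level minus that of the epithelial genes, Tppp3 took the opposite direction in the Rptor line, with all deficient lungs higher, by 0.87, while in the Tfam line it differed by -0.31 with all deficient lungs lower. These 2 differences were not tested. In the Tfam line the calls of Mcidas and Capsl were lost without deficient replicate 3, the library high in oesophagus markers (limma adjusted p = 0.115 and 0.155, within 0.0321 to 0.115 and 0.0276 to 0.187 over all alternatives), while that of Tppp3 held at 0.0117. The Mcidas and Capsl calls were also lost with no filter (0.0506 and 0.0754) and with all 18 samples in 1 fit (0.0956 and 0.0599). The Mcidas call held without deficient replicate 2 alone, and the Capsl call without control replicate 2 or deficient replicate 1 alone. The part of these libraries in the result was not tested.

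Structural genes of the axoneme went both ways in the Rptor line. Dnah11, an outer arm heavy chain, had 65.8, 25.98 and 25.86 reads in control and 10.2, 16.8 and 15.8 in deficient lungs and fell by 1.28 (limma adjusted p = 0.0359). Efhc2, a protein inside the doublet microtubules, had 20.9, 28.0 and 14.9 against 9.18, 10.9 and 4.94 reads and fell by 1.27 (limma adjusted p = 0.0307). Relative to the epithelial genes, Efhc2 differed by -0.10 in this line, with overlapping groups. Capsl differed by -0.96 on that scale, with all deficient lungs lower, and neither difference was tested. Cfap52, another protein inside the doublets, had 23.9, 32.0 and 26.9 against 14.3, 13.9 and 18.8 reads and fell by 0.78 (limma adjusted p = 0.0444), a call lost with the replicate block at 0.0579, with no filter at 0.0624 and with all 18 samples in 1 fit at 0.0825. Leaving out single samples ended these calls in some cases. The Dnah11 call held only without control replicate 3 and the Cfap52 call only without deficient replicate 3. The Efhc2 call was lost without control replicate 1, control replicate 2 or deficient replicate 3. These 3 genes were also lower in every Cox10-deficient than every Cox10 control lung, as were 11 of the 69 tested genes of the list and 10.8% of all genes, while 9 of 69 and 10.6% were higher in every deficient lung. The log2 fold changes of Dnah11, Efhc2 and Cfap52 were -1.27, -1.29 and -1.13 and missed the threshold (limma adjusted p = 0.0988, 0.194 and 0.327), of which that of Efhc2 passed with all 18 samples in 1 fit (0.0397). Vwa3a was higher in Rptor-deficient lungs, with 12.96, 20.98 and 21.88 reads in control and 35.7, 30.7 and 40.5 in deficient lungs (log2 fold change 0.93, limma adjusted p = 0.0301), a call that held without control replicate 3 or deficient replicate 2 but not without the other samples. The Tppp3 call in the Rptor line held only without control replicate 2. By role, and against 18.2% of all genes called lower and 16.6% higher, the Rptor line gave 3 of 3 tested regulators lower, 2 of 6 centriole genes lower, 2 of 9 arm assembly genes lower and 2 of 7 inner arm genes higher. Of the 7 regulators listed, 4 had too few reads there to be tested, Gmnc among them. Outer arm genes gave 1 lower and 1 higher of 7, proteins inside the doublets 2 lower and 1 higher of 13, and other genes of ciliated cells 3 lower and 1 higher of 6. Among ruler and nexin link, radial spoke and central pair genes 0 of 6 each were called, and 0, 0 and 1 had an unadjusted p below 0.05 (limma). Of 29 genes of the primary cilium, which most cells bear, 4 were called for Rptor, 13.8% against 34.8% of all genes, and 1 for Tfam, 3.45% against 4.66%, all higher. For Cox10 0 of 29 were called, against 0.475%. At an unadjusted p below 0.05 (limma) there were 4, 13.8% against 13% of all genes.

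The genes whose values over the 18 samples, as log2 differences from the control mean of their table, most resembled those of Foxj1 among 12947 genes were Kif12 (Pearson r = 0.903), Gm19990 (0.899), Nptx1 (0.897), Col4a6 (0.892) and Cym (0.882). Among the members, Myb came nearest at 0.690, in place 390, followed by Ccno at 0.598 and Rfx2 at 0.511, and Tekt1 had -0.15 and Ccdc39 -0.37. These correlations are descriptions, since the points share lines and libraries and the summed level of the epithelial genes differs between the same groups.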

How the data were processed

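RNA from whole lungs at 14.5 dpc was sequenced, and the submitters' processing notes name Trim Galore, HISAT2, featureCounts, DESeq2 and build mm10, with annotation and strand setting not given in the sources used here. The deposited values are a signal, namely read counts that the authors divided by a size factor for each sample, separately in each table. Every low value checked was a whole multiple of a step of 0.978 to 1.02 (tolerance 0.01), and higher values were not checked. Columns of the authors' fold changes and p-values were not used.

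Values were tested as log2(value + 1) with limma 3.58.1 in R 4.3.3 (trended variance, genotype only, 2-sided, Benjamini-Hochberg adjustment over all genes tested), in genes with at least 10 in at least 3 of 6 samples. Effects were compared between lines in 1 fit of 18 samples over 14550 genes tested in every line. Fold changes on this scale understate changes of low genes. The fits were tested on simulated data. Nothing in the labels says that replicates were separate litters, so p-values measure the spread between these samples. The members and gene lists were chosen with earlier results of these data known. One gene of the wider list enters the counts but is not reported here by name or plotted. Named genes were all members, of the wider list up to 6 called genes per line with the largest fold change and those called alike in 2 lines, the targeted genes, epithelial references and the 5 genes most like Foxj1 with a mean of at least 50. Deviations of samples with the same replicate number correlated at 0.221, 0.330 and 0.259 in the Rptor line, each above 0.1, so the numbers were taken to pair those samples from the data. Intervals and floors from reads cover counting error only. Gene positions are from GENCODE on GRCm38.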

Additional observations from a re-analysis of the deposited data

Results flagged for a closer look

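In 3 sets of values the effect of deficiency differed between lines. Myb differed by -0.75 on the log2 scale between the Rptor and Tfam lines and by -0.80 between the Rptor and Cox10 lines (limma adjusted p = 0.00862 and 0.00614, deficient lungs below controls in 3 of 3 samples of each line). Over the fits that left out 1 of the 18 samples, the Myb differences stayed past the threshold. Relative to the epithelial genes, Myb differed between deficient and control lungs by 0.00 for Rptor, -0.15 for Tfam and 0.03 for Cox10, with overlapping groups each time. Mcidas differed by -1.83 and -2.24 for the same pairs of lines (limma adjusted p = 0.0114 and 0.00328), with 5 reads in all over the 3 Rptor-deficient lungs. Foxj1 relative to Epcam, Cdh1 and Nkx2-1 differed by 0.90 and 0.78 (exact permutation p = 0.005 for both). With Epcam alone or Nkx2-1 alone these differences kept their sign but missed the threshold, and leaving out only Cdh1 was not tried. The epithelial marker sums also differed most between groups in the Rptor line, and their part in these values was not tested.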

How the results depend on the processing

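Results were recomputed with a pseudocount of 0.1, with samples scaled to their totals, without a filter, at a minimum mean of 50, with replicate number as a block, in 1 fit of all 18 samples, and without each sample. Count tests with edgeR and DESeq2 were intended and not run on these normalised values. Of 281 comparisons of the members' fold changes with an alternative, 260 kept direction and side of the threshold, 6 lost the call, 5 gained one and 10 changed sign. The Rptor count of 2 called members was 1 at a mean of at least 50, which leaves out Ccno, and 4 with all samples in 1 fit, and 2 to 3 without single samples. The Tfam count of 1 was 0 with no filter, 0 with all samples in 1 fit and 0 to 2 without single samples. The wider Rptor count of 18 was 9 to 15 without single samples. The wider Tfam count of 3 was 1 with no filter, 1 at a mean of at least 50, 1 with all samples in 1 fit and 1 to 2 without single samples. The wider Cox10 count of 0 was 2 with all samples in 1 fit, Capsl and Efhc2. The causes of these shifts were not tested.

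With the replicate block, 3, 1 and 0 members and 19, 2 and 0 wider genes were called in the Rptor, Tfam and Cox10 lines, the added Rptor member being Foxj1. The share of all genes called with the block is not given here, so these counts cannot be read against it. Blocked calls of Capsl in the Tfam line were lost at an adjusted p of 0.0511. Members with a different effect were 1 for Rptor minus Tfam, 2 for Rptor minus Cox10 and 0 for Tfam minus Cox10 with the block, and 1 to 2 for Rptor minus Cox10 without single samples. Foxj1 relative to the epithelial genes differed by 0.38, -0.53 and -0.40 by pairs, each with an exact sign-flip p of 0.25, the smallest it can give. The same-number correlations were -0.31, -0.21 and 0.15 in the Tfam line and 0.447, 0.202 and 0.0488 in the Cox10 line, so the numbers were not taken to pair those samples.

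With Epcam alone, Foxj1 relative to it differed by -0.020 in the Rptor line (exact permutation p = 0.9), the opposite sign. The following alternatives for comparing that effect between lines were chosen after seeing the data. The Rptor effect differed from the Tfam effect by 0.73 with Epcam alone and 0.64 with Nkx2-1 alone, and from the Cox10 effect by 0.48 and 0.41, none past the threshold (exact permutation p = 0.055 to 0.175). Tfam minus Cox10 turned to 0.12 with Cdh1 alone and ranged from -0.25 to 0.033 without single samples. Signs also turned without single samples, none past the threshold, for Rfx3 (-0.067 to 0.19 in the Rptor, -0.12 to 0.045 in the Tfam and -0.16 to 0.016 in the Cox10 line), Ccdc39 (-0.35 to 0.012) and Vwa3a (-0.32 to 0.21) in the Tfam line, and Ccno (-0.34 to 0.12), Rfx2 (-0.074 to 0.00026) and Dnah9 (-0.21 to 0.12) in the Cox10 line.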
